A study of Arabidopsis thaliana with 8 samples.

Results

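The roots of wild-type Arabidopsis and of the mutant per1 were compared for how their transcripts changed when inorganic phosphate (Pi) was withdrawn, and the quantity described is the difference between the responses of the genotypes. It was taken for each probeset as the change in per1 minus the change in Col-0, called the interaction, and used all 8 arrays of the series. A negative interaction means that the transcript moved upwards less, or downwards more, in per1 than in Col-0. The plants were the wild type, accession Col-0, or per1, and the sources used here give no allele or transgene for per1. They were grown on agar with control medium for 10 days and then moved for 10 h to fresh control medium or to medium without Pi. Each genotype on each medium was measured on 2 arrays, which gave 4 groups. The arrays of a group carry the words biological replicate in their labels, and the sources used here do not say how many plants each RNA came from. The groups were taken from the sample titles. A separate free-text field of the samples speaks of iron supply and does not follow the titles, so the medium rests on the titles and the treatment protocol.

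Plants sense falling Pi at the root tip and inside the cell, and the PHR1 family of transcription factors switches on genes for Pi uptake, for release of Pi from organic compounds and for replacement of membrane phospholipids. Over a longer time the root makes more and longer root hairs, the tubular outgrowths of epidermal cells that take up much of the Pi. The mutant per1 is known for root hairs that fail to lengthen under Pi deficiency, and the affected gene encodes the ubiquitin-specific protease UBP14, which takes apart free ubiquitin chains. UBP14 itself was not analysed here, since no probeset carried its name, so the genotype labels could not be checked on it.

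Values are linear signal intensities of ATH1 probesets, and changes are given as differences of log2(signal + 16), which understates the change of low signals. Array medians lay between 186 and 197.1, and the mean Spearman correlation of an array with the others was lowest for Col-0 in Pi-free medium replicate 2 at 0.9725 and at most 0.978. The ratio of 3′ to 5′ signal of the actin control, a sign of RNA quality, ran from 4.98 to 6.38 on control arrays and from 4.07 to 5.49 on Pi-free arrays. The same ratio for GAPDH was 1.32 to 1.57 in Col-0 controls, 1.51 to 1.61 in Pi-free Col-0, 1.31 to 1.58 in per1 controls and 1.22 to 1.44 in Pi-free per1, so the genotypes did not overlap in Pi-free medium. The part of RNA quality in the interactions was not tested. Within groups the median SD over probesets was highest in Pi-free Col-0, at 0.18 on the log2 scale, and lowest in Pi-free per1, at 0.13. The 3 named markers of green shoot tissue, of 18 fixed, summed to signals of 557.5 to 734.3 in Col-0 and 326.1 to 419.6 in per1, in either medium. No marker of endodermis, stele or hairless epidermis had a named probeset, 1 of 4 root cap markers had, and 2 of 5 markers of hair cells had. The root cap marker stood at 304.9 to 378.5 in Col-0 and 184.3 to 228.2 in per1, in either medium. That the tissue was root thus rests on 3 markers, of hair cells and root cap. In such bulk samples, fewer cells of a type and less RNA per cell cannot be told apart.

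The test for a Pi response that differed between the genotypes called a very small number of transcripts. With 2 arrays per group, the small number of calls does not show that the other responses were alike. Of 22746 probesets tested, 2 were called for the interaction in limma at an adjusted p under 0.05 (0.00879%), both with a smaller rise in per1 (0.00879% lower, 0% higher). At an unadjusted p under 0.05 there were 1206 probesets (5.3%), against the 1137.3 that such a threshold gives when nothing changes. Of these, 677 (2.98%) had a higher and 529 (2.33%) a lower interaction. The smallest adjusted p after the called probesets was 0.18. The response itself was called for 14 probesets in Col-0 (0.0615%), of which 13 were higher (0.0572%) and 1 lower (0.0044%), and for 1 probeset in per1 (0.0044%), where it was higher. At an unadjusted p under 0.05 the Col-0 response held 7.68% of probesets and the per1 response 4.47%. That more probesets were called in Col-0 than in per1 is not a test of the difference, for which the interaction stands.

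Across the 11373 probesets above the median signal, the Col-0 and per1 responses, which share no array, had a Pearson correlation of 0.15 and a Spearman correlation of 0.03. The interactions computed within replicate number 1 and within replicate number 2 had a Pearson correlation of 0.17 over the same probesets. These are correlations across probesets, which are not independent replicates, and they are given as a description. The estimated responses of the genotypes were thus only weakly correlated over these probesets, and a few probesets lay far from the centre. Noise in estimates from 2 arrays per group lowers such a correlation, so it does not measure how alike the responses were.

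**Figure D1:**
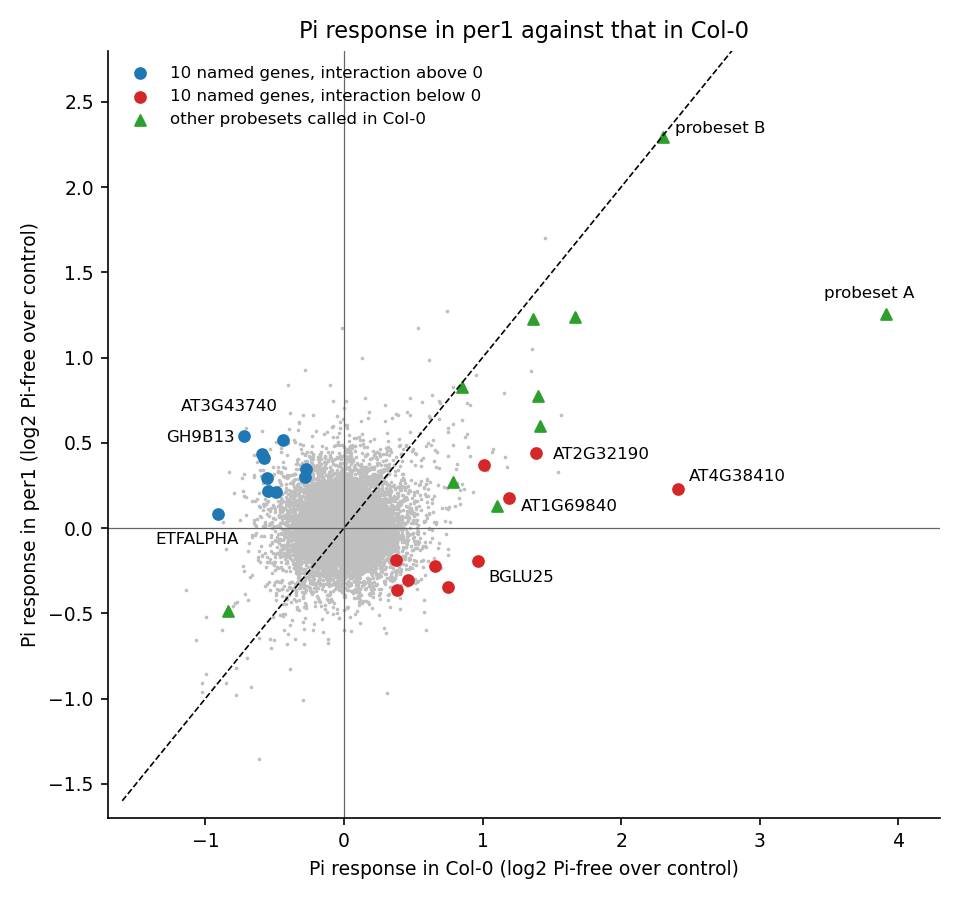
Pi response in per1 (y axis, log2 of Pi-free over control) against that in Col-0 (x axis, same scale), with the grey points standing for probesets above the median signal and marked points for named genes and lettered probesets. Probeset A and AT4G38410 lie far to the right and below the diagonal of equal responses, at 3.92 and 2.41 in Col-0 against 1.25 and 0.23 in per1, while probeset B lies on it at 2.30 and 2.29.

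The clearest loss of a Pi response was that of AT4G38410 on chromosome 4, which encodes a member of the dehydrin family, hydrophilic proteins that accumulate in plant cells short of water. In Col-0 its signal was 421.4 and 362.5 in control medium and 1856.4 and 2484.5 in Pi-free medium. In per1 it was 579.3 and 620.2 in control medium and 646.4 and 769.3 in Pi-free medium. The wild-type arrays were far apart between media, whereas the per1 arrays of the different media stood close together, all of them above the Col-0 controls and below Pi-free Col-0. The Col-0 level rose 5.54-fold and the ratio in per1 was 1.18. On the log2 scale the response was 2.41 ± 0.16 (SE, n = 2 and 2) in Col-0, with a limma adjusted p of 0.00052, and 0.23 in per1, with an adjusted p of 1. The interaction was -2.18 ± 0.22, with a 95% interval from -2.68 to -1.68 and a limma adjusted p of 0.030. The genotypes parted mainly in Pi-free medium, where per1 was lower, at -1.59 against Col-0 (limma adjusted p 0.047), against 0.60 in control medium (limma adjusted p 0.27). Leaving out any array other than Pi-free Col-0 replicate 1 ended the call, with the interaction between -2.39 and -1.97 and limma adjusted p of 0.11 to 0.39.

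The other called probeset has no gene name here and is called A. Its signal in Col-0 was 147.9 and 114.2 in control medium and 2041.5 and 2344.6 in Pi-free medium. In per1 it was 692 and 626.1 in control medium and 1579.8 and 1605.8 in Pi-free medium. The per1 controls already stood well above the Col-0 controls, and the Pi-free per1 arrays fell short of the Pi-free Col-0 arrays. Probeset A rose 16.7-fold in Col-0, by 3.92 ± 0.14 on the log2 scale (limma adjusted p 2.9e-06), while the ratio of Pi-free to control in per1 was 2.42, or 1.25 on the log2 scale (limma adjusted p 0.056). Its interaction was -2.66 ± 0.20, with a 95% interval from -3.10 to -2.22 and a limma adjusted p of 0.0029. The control medium held most of this difference, since per1 controls were 5.03 times the Col-0 controls, a log2 difference of 2.21 (limma adjusted p 0.00067), and per1 stood at -0.45 against Col-0 in Pi-free medium (limma adjusted p 0.29). The pair of called probesets therefore parted in different media. Without either Pi-free per1 array the adjusted p of probeset A was 0.078 and 0.074.

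**Figure D2:**
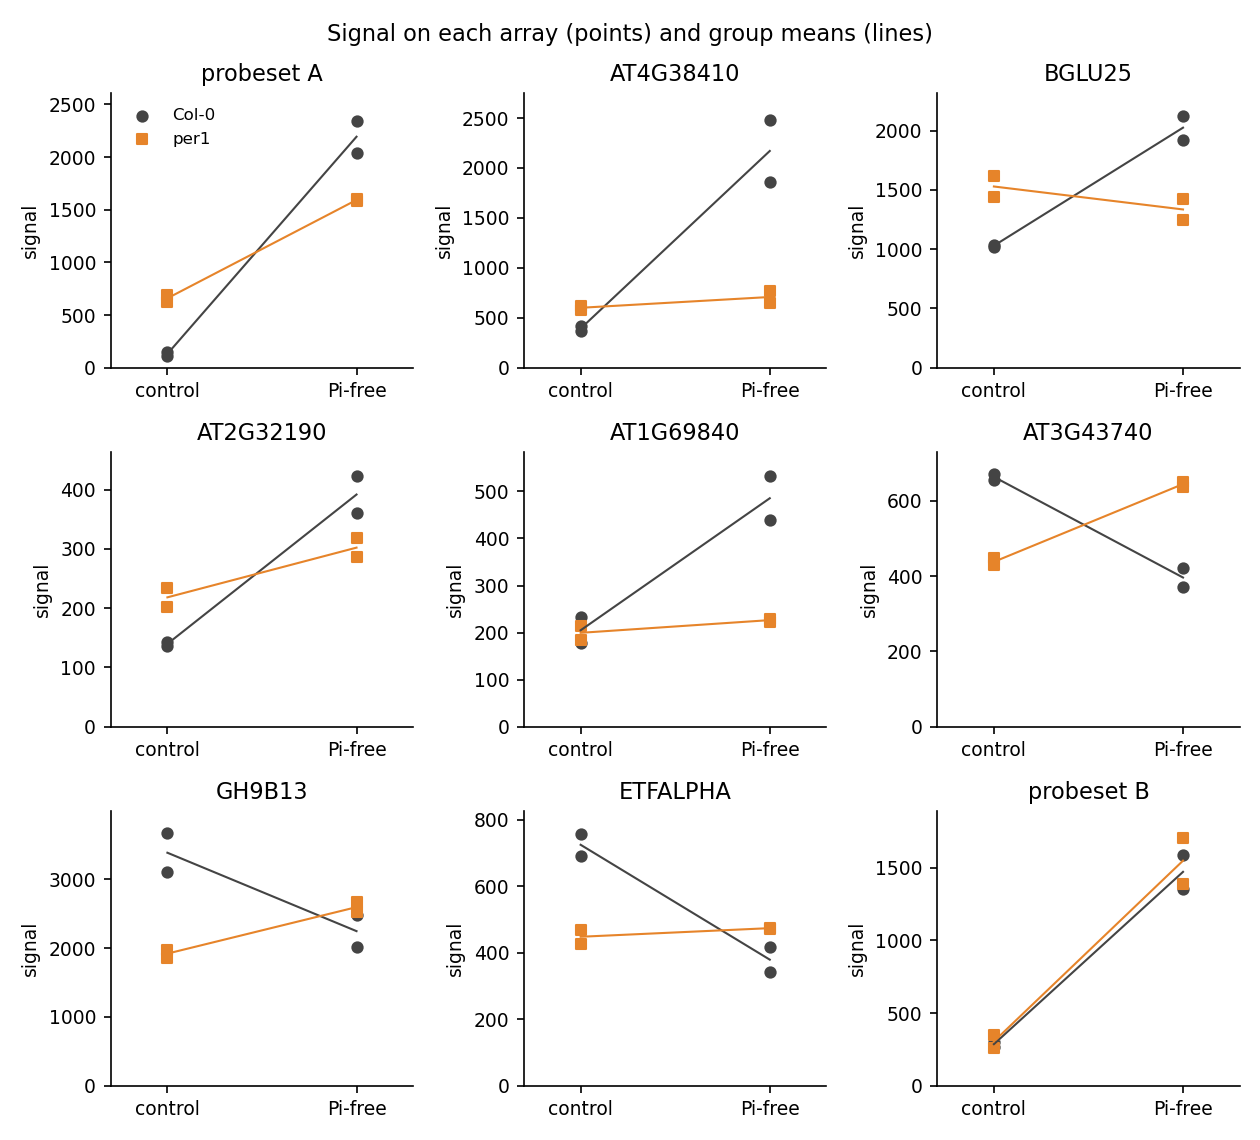
Signal (linear y axis from 0) of each array in control and Pi-free medium, with points for the arrays and lines joining the group means of Col-0 and per1, for the genes and probesets the results turn on. In AT4G38410 the nearly flat per1 line starts above the steep Col-0 line and ends far below it. In AT3G43740 the lines cross with opposite slopes, and in probeset B they run together.

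The 14 probesets called in Col-0 were then followed in per1. The per1 arrays did not enter the Col-0 change itself, but they entered the variances behind the calls, so the choice was not independent of them. Of the 14, 13 had a per1 response of the same sign as in Col-0, and BGLU25 was the exception. In per1 11 of the 14 had an unadjusted p under 0.05, where 4.47% of all probesets did. The per1 response was the smaller in all 14, with medians of 1.37 in Col-0 and 0.52 in per1. That direction is in part set by the choice, because the 14 were taken for a large change in Col-0. The interaction had an unadjusted p under 0.05 for 9 of the 14, and 2 were called, AT4G38410 and probeset A. Only 4 of the 14 matched a named gene, all of them among those that rose in Col-0. Without any of the 8 arrays, 3 or 4 probesets were called in Col-0 in place of 14.

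BGLU25, a member of the beta-glucosidase family, which in plants releases active compounds from their sugar conjugates, rose in Col-0 and did not pass the test in per1. Its signal in Col-0 was 1021.5 and 1036.8 in control medium and 1923 and 2127.3 in Pi-free medium. In per1 it was 1440.5 and 1617.1 in control medium and 1248.8 and 1421.4 in Pi-free medium. The Pi-free per1 arrays thus lay below the per1 controls, with no overlap, and between both Col-0 groups. The Col-0 response was 0.96 ± 0.11 (limma adjusted p 0.025) and the per1 response -0.19 (limma adjusted p 1). With an interaction of -1.16 ± 0.16, and -1.11 and -1.21 within replicate numbers 1 and 2, it did not pass the test over all probesets (limma adjusted p 0.18).

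AT2G32190 encodes a small cysteine-rich protein with a transmembrane module, of the CYSTM type that is associated with stress tolerance. In Col-0 its signal was 143.3 and 136.2 in control medium and 361.3 and 422.2 in Pi-free medium, and in per1 it was 233.9 and 202.6 in control medium and 318.2 and 286.1 in Pi-free medium. All 4 groups were apart, with the per1 groups nested between the Col-0 groups. Its rise in Col-0 was 1.38 on the log2 scale (limma adjusted p 0.032), against 0.44 in per1, and the interaction was -0.94 ± 0.24 (limma adjusted p 0.91).

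AT2G46600 encodes KIC, a calcium-binding protein that regulates a kinesin. Its Col-0 signal was 2009.1 and 1776.5 in control medium and 3520 and 4134.3 in Pi-free medium, and its per1 signal was 2292.3 and 2432.5 in control medium and 3149.3 and 2953.8 in Pi-free medium. The per1 arrays again lay between the Col-0 groups in each medium, without overlap. The response was 1.01 in Col-0 (limma adjusted p 0.025) and 0.37 in per1, an interaction of -0.64 ± 0.16 (limma adjusted p 0.91).

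Some wild-type rises were nearly matched in per1. Probeset B, also without a gene name, was the probeset called in both genotypes. Its signal was 302.1 and 269.2 in Col-0 controls, 1354.3 and 1588.1 in Pi-free Col-0, 346.9 and 262 in per1 controls and 1388.8 and 1707.5 in Pi-free per1. The groups of the same medium overlapped between genotypes. The response was 2.30 in Col-0 (limma adjusted p 0.00076) and 2.29 in per1 (limma adjusted p 0.0024), and the interaction was -0.01 ± 0.23 with a 95% interval from -0.53 to 0.51.

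A pair of further unnamed probesets called in Col-0 came close to this. Probeset C stood at 1.36 in Col-0 and 1.23 in per1, with an interaction interval from -0.62 to 0.35, and probeset G at 0.85 and 0.83, with an interval from -0.37 to 0.33. Those intervals leave room for moderate differences in either direction. Without the Pi-free per1 replicate 2 array, no probeset was called in per1.

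The remaining unnamed probesets called in Col-0 lay between these extremes. Probesets D, E, F and H had interactions of -0.62, -0.43, -0.81 and -0.52, and J, whose per1 response was 0.13, had -0.97. Probeset I, the probeset that fell in Col-0, changed by -0.84 there and stood at -0.49 in per1, an interaction of 0.35 ± 0.16. None of these was called for the interaction.

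Beyond the called probesets, patterns were sorted by size. Among probesets with an interaction of at least 1 on the log2 scale, a response was counted as lost where Col-0 reached 0.5 in size and per1 did not, as gained where only per1 reached it, and as reversed where both did with opposite signs. There were 1061 such probesets (4.66%), but 1037 of them lay at or below the median signal of 193, where the median SE of an interaction was 0.48, against 0.21 above it. Above the median signal 24 remained (0.211%), 23 of them with the same sign in both replicate numbers. The share over all probesets above the median signal was 56.6%. The interaction is the mean of the values within the replicate numbers, so the size limit largely sets this agreement. Of the 23, 7 were lost rises, 7 lost falls, 4 gained rises, 3 turned from fall to rise, 1 from rise to fall and 1, probeset A, was weakened. Gained falls and strengthened responses numbered 0 there. The classes are a description of the same values as the interaction and carry no test.

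For 14 of the 23 a gene name was given. The lost rises with a name were AT4G38410, BGLU25, AT1G69840, AT1G31220 and AT1G05340, of which AT4G38410 and BGLU25 rose in Col-0 past the test. AT1G69840 encodes a band 7 protein of the hypersensitive-induced reaction family, found at the plasma membrane. Its signal in Col-0 was 177.6 and 232.2 in control medium and 439 and 532.1 in Pi-free medium, against 185.2 and 213.8 and then 223.5 and 229.5 in per1. Here the genotypes overlapped in control medium and were far apart in Pi-free medium. The Col-0 response was 1.19 (limma adjusted p 0.075), the per1 response 0.17, and the interaction -1.01 ± 0.26 (limma adjusted p 0.91).

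AT1G05340, like AT2G32190 a gene of the CYSTM type, had Col-0 signals of 294.7 and 383.4 in control medium and 705 and 1448.6 in Pi-free medium, and per1 signals of 180.8 and 243.7 and then 213.5 and 334.3. The Pi-free Col-0 arrays differed widely from each other, and per1 stayed under Pi-free Col-0 throughout. Its interaction was -1.22 ± 0.46 (limma adjusted p 0.92). AT1G31220, which encodes a formyltransferase of purine synthesis, stood at 0.75 in Col-0 and -0.34 in per1, with an interaction of -1.09 ± 0.26.

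None of the named lost falls passed the test in either genotype. GH9B13, an endoglucanase of glycosyl hydrolase family 9 that acts on cell wall glucans, had Col-0 signals of 3104.3 and 3671.3 in control medium and 2479.6 and 2015.4 in Pi-free medium. In per1 it had 1979.9 and 1861.7 in control medium and 2672 and 2521.2 in Pi-free medium. The per1 controls were the lowest group and the Col-0 controls the highest, with the Pi-free groups between. The responses were -0.59 and 0.43, and the interaction was 1.02 ± 0.18 (limma adjusted p 0.65).

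The other named lost falls were AT4G30620, AT5G60670, AT1G26250 and AT2G45340, which with GH9B13 are the 5 of smallest p among 6. AT5G60670 encodes a ribosomal protein of the L11 family, AT1G26250 an extensin, a structural glycoprotein of the cell wall, and AT2G45340 a receptor-like kinase with leucine-rich repeats. Their interactions were 1.04 ± 0.27 for AT4G30620, 1.08 ± 0.28 for AT5G60670 and 1.16 ± 0.34 for AT1G26250, and that of AT2G45340 was at the class limit of 1 with an SE of 0.34. In AT5G60670 the per1 control arrays differed widely, at 9781.4 and 5850.8, against 10135.9 and 10214.3 in Pi-free per1. In AT1G26250 they stood at 2852.5 and 1586.4, so that the per1 controls overlapped with other groups.

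ETFALPHA encodes a subunit of the flavoprotein that in mitochondria passes electrons from the breakdown of branched-chain amino acids to the respiratory chain. Its Col-0 signal was 758 and 692.5 in control medium and 416.5 and 342.4 in Pi-free medium, while per1 gave 427.9 and 468.8 in control medium and 475.5 and 473.1 in Pi-free medium. The Col-0 controls stood high above the other groups, which lay close together without overlap. The responses were -0.91 in Col-0 (limma adjusted p 0.072) and 0.08 in per1, and the interaction of 0.99 ± 0.19 (limma adjusted p 0.81) fell just short of the size limit used for the classes.

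A reversed response with tight replicates was that of AT3G43740 on chromosome 3, which encodes a protein with leucine-rich repeats. Its signal went from 672.2 and 655.4 to 421.5 and 371.1 in Col-0, and in per1 it went from 447.2 and 428.8 in control medium to 637.7 and 651.4 in Pi-free medium. The per1 controls resembled Pi-free Col-0, and Pi-free per1 resembled the Col-0 controls. The responses were -0.72 (limma adjusted p 0.10) and 0.54 (limma adjusted p 0.78). The interaction was 1.27 ± 0.17, with 1.15 and 1.38 within the replicate numbers, and its limma adjusted p was 0.18. The genotype difference was -0.58 in the control and 0.68 in Pi-free medium.

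In the opposite direction, AT1G30760, a member of the berberine bridge enzyme-like family of oxidases, stood at 0.59 in Col-0 and -0.60 in per1, an interaction of -1.18 ± 0.43 (limma adjusted p 0.92). Its signals were 67 and 117.9 in Col-0 controls, 113 and 179 in Pi-free Col-0, 360 and 466.5 in per1 controls and 319.9 and 220.6 in Pi-free per1. The Col-0 groups overlapped, and per1 was above Col-0 in either medium.

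The single named gained rise was the plastid gene atpH, encoding a subunit of the chloroplast ATP synthase. Its signals were 171.7 and 254.6 in Col-0 controls, 128.2 and 223.2 in Pi-free Col-0, 170.6 and 549.3 in per1 controls and 461.4 and 780.1 in Pi-free per1. The per1 groups overlapped and their arrays were far apart. Its interaction of 1.20 ± 0.67 had a 95% interval from -0.29 to 2.70, so the data do not separate it from 0.

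The 10 genes with the smallest interaction p in each direction, among named probesets above the median signal and alike in sign between replicate numbers, were then set side by side. They were chosen on the interaction, so what follows describes them. AT4G38410 alone among the 20 was called, and the limma adjusted p ran from 0.030 to 0.91. The 10 with a higher interaction all had a Col-0 response below 0, with a median of -0.55, and a per1 response above 0, with a median of 0.32. The 10 with a lower interaction all had a Col-0 response above 0, with a median of 0.86, and 4 of them had a per1 response above 0, the median being -0.19. In 16 of the 20 the responses had opposite signs, where 49.6% of probesets above the median signal did. The per1 response was the smaller in size in 17 of the 20. Control and Pi-free arrays did not overlap for any of the 20 in Col-0 (35.2% of all probesets) and for 19 in per1 (33.7%).

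Besides those already described, the genes with a higher interaction were AT4G02540, AT5G06590, AT3G19100, AT2G04410, AT1G03687, YLS5 and the plastid gene rpl33, with interactions from 0.58 to 0.99. AT4G02540 encodes a protein with a cysteine- and histidine-rich C1 domain, AT3G19100 a kinase related to calcium-dependent protein kinases, and rpl33 a protein of the plastid ribosome. AT4G02540 gave 1160.6 and 1168.1 in Col-0 controls, 840.5 and 807.1 in Pi-free Col-0, 854.3 and 796.5 in per1 controls and 959.8 and 958 in Pi-free per1. As for ETFALPHA, the Col-0 controls were the group that stood highest. For rpl33 the order was another, since Pi-free per1 was the highest group, at 2000.1 and 2240.9, and Pi-free Col-0 the lowest, at 1410.5 and 1003.8.

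The remaining genes with a lower interaction were AT3G09320, AT4G20320, AT1G15270 and ALDH22A1, with interactions of -0.77, -0.75, -0.88 and -0.56. AT3G09320 encodes an S-acyltransferase with a DHHC domain, which attaches fatty acids to proteins, AT4G20320 a CTP synthase, and ALDH22A1 an aldehyde dehydrogenase. AT3G09320 gave 422 and 426.5 in Col-0 controls, 593.7 and 585.4 in Pi-free Col-0, 529.5 and 535 in per1 controls and 443.2 and 411.4 in Pi-free per1. Its Col-0 controls and Pi-free per1 arrays overlapped, and the other groups lay above them.

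The interaction equals the genotype difference in Pi-free medium minus that in control medium, and the fit gave both. Over all probesets 13 were called for the genotype difference in the control (0.0572%) and 7 in Pi-free medium (0.0308%). In 19 of the 20 genes the sign of the genotype difference was opposite in the media, AT1G69840 being the exception with -0.03 and -1.04. For 18 of the 20 all 4 neighbouring pairs of groups were apart, against 4.84% of all probesets, low signals included. Choosing these genes on a small interaction p favours such separation and opposite signs, so the counts only describe them. The larger of the genotype differences lay in Pi-free medium for 11 genes and in the control for 9. For the 10 higher genes the median difference, per1 minus Col-0, was -0.37 in the control and 0.41 in Pi-free medium, and for the 10 lower genes it was 0.57 and -0.36.

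**Figure D3:**
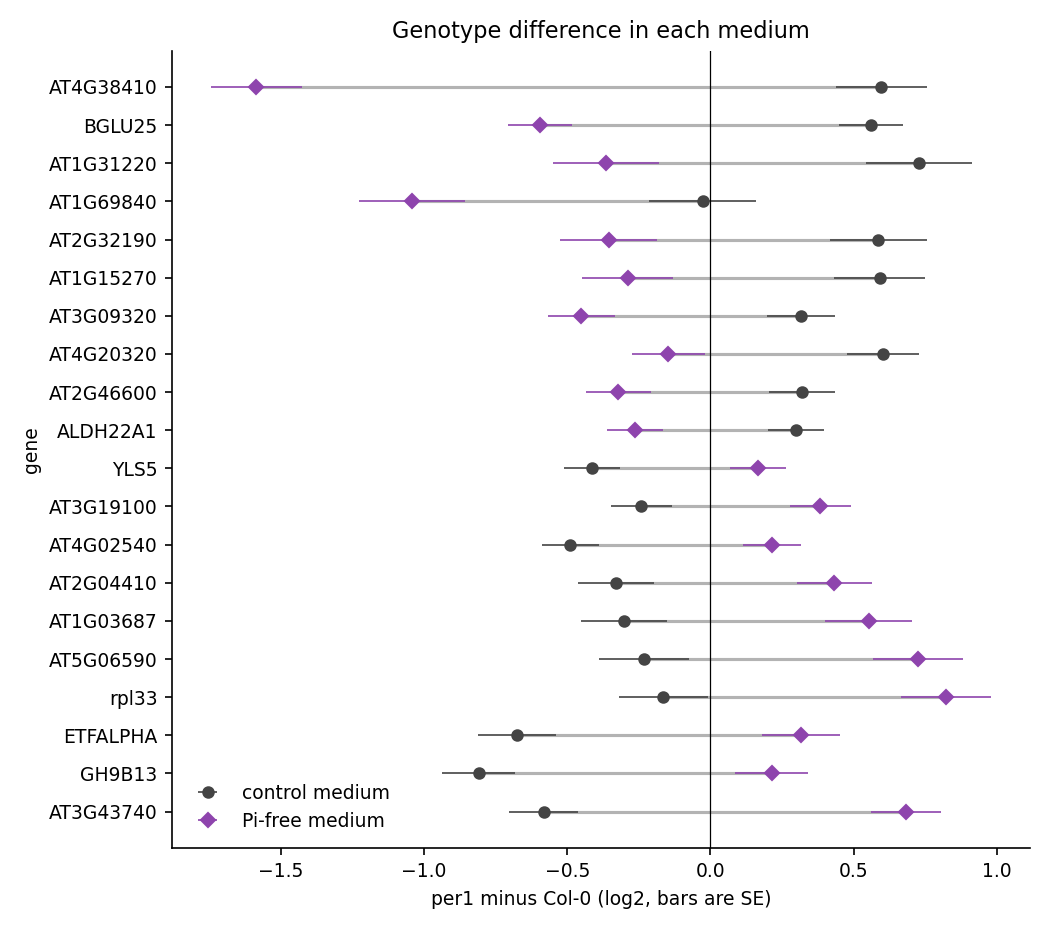
Difference of per1 minus Col-0 on the log2 scale (x axis) on either medium, with points for the estimates and bars for their SE, for the 20 genes (rows). In 19 of the 20 genes the points lie on opposite sides of 0, with AT4G38410 at 0.60 and -1.59.

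Gene lists that fit the tissue and the treatment were read by their counts and medians, beside a median interaction of 0.02 over all probesets. Of 20 lists, 17 had at least 3 named loci. Apart from AT4G38410 among the dehydrins, 0 of their members were called. The lists hold only the loci that carried a name, often a small share, and many well-known Pi starvation genes were not analysed here.

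No measured member of the list of known Pi starvation genes passed the interaction test. Of 25 listed, 4 were measured, with a median interaction of -0.20, and median responses of 0.50 in Col-0 and 0.52 in per1. AT5G20790, a known Pi-responsive transcript, gave 129.6 and 125.8 in Col-0 controls, 209.5 and 195.1 in Pi-free Col-0, 115.8 and 75.8 in per1 controls and 165.2 and 223.9 in Pi-free per1. Its groups did not overlap between media within either genotype, and its interaction was 0.32 ± 0.35. AT1G13750, which encodes a purple acid phosphatase, stood at -0.26 ± 0.20. Of 20 genes of Pi transport, sensing and signalling, 3 were measured by 4 probesets with a median of 0.06. They were LPR1 at 0.26 ± 0.27 and LPR2, ferroxidase genes of Pi sensing at the root tip, and SIZ1, a SUMO ligase gene, at 0.07 ± 0.18. None of these members reached an unadjusted p of 0.05.

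Root hair genes had a median interaction of -0.44 over 6 of 30 loci, with 5 of 6 below 0, where 47% of all probesets were. At an unadjusted p under 0.05 there were 2, both lower, where 2.33% of all probesets were lower. EXPA18, an expansin that loosens the wall of hair cells, gave 1271.5 and 1159.6 in Col-0 controls, 1314.5 and 1369.8 in Pi-free Col-0, 1029.6 and 1030.6 in per1 controls and 869.6 and 765.2 in Pi-free per1. All groups were apart, and Pi-free per1 was the lowest. Its interaction was -0.47 ± 0.15 (limma adjusted p 0.92).

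AT4G26010, a class III peroxidase gene expressed in root hairs, gave 5078.3 and 4077.3, then 4414.2 and 4002.5 in Col-0, and 4193.3 and 5071.5, then 2907.7 and 2948.7 in per1. The Pi-free per1 arrays lay under all other arrays, which overlapped. Its interaction was -0.54 ± 0.19 (limma adjusted p 0.92). The median of the list was -0.18 within replicate number 1 and -0.65 within replicate number 2. The 2 measured markers of hair cells, EXPA7 and EXPA18, are members of this list, and their summed signal was 1841.7 to 1981.3 in Col-0 controls, 1916.9 to 2159.2 in Pi-free Col-0, 1674.5 to 1801.4 in per1 controls and 1328 to 1420.6 in Pi-free per1. Whether the number of hair cells differed was not tested.

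No other measured dehydrin came near AT4G38410 in the size of its interaction. Of 10 loci 6 were measured, with a median of -0.15, and -0.30 above the median signal only. Of the 6, 4 lay below 0, where 47% of all probesets did. LTI30, a dehydrin gene of cold and drought, stood at -0.31 ± 0.23 and COR47 at -0.29 ± 0.28. The members above 0, AT4G39130 and LEA, had signals of at most 41 on any array. Of the 19 other genes of abscisic acid, cold and osmotic response, 3 were measured, with a median of 0.54. OSM34, an osmotin gene, had an unadjusted p under 0.05 at 0.54 ± 0.22, and COR15B stood at 0.84 ± 0.76 at a very low signal. The list of ER body genes, which belong to a beta-glucosidase-filled compartment of root cells and of which 4 of 12 were measured, had a median of -0.18. Its member NAI2, a structural protein of these bodies, stood at -0.19 ± 0.18 beside BGLU25.

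Lists of genes related to the mutated function and to the cell wall had medians between -0.19 and -0.00. Members at an unadjusted p under 0.05 made up 16.7% of the ubiquitin-specific proteases and 5.56% of the expansins. They made up 11.1% each of the xyloglucan hydrolases and the extensins. Over all probesets 2.98% were higher and 2.33% lower, and each list share rests on 1 or 2 probesets. For 12 ubiquitin-specific protease genes, the members measured of a list that also held polyubiquitin genes, the median was -0.01, with UBP24 at 0.43 ± 0.14 and UBP21 at 0.84 ± 0.36, both higher at an unadjusted p under 0.05. For 18 expansins it was -0.09, with 1 lower, EXPA18, while EXPA15 stood at 0.31 ± 0.15. For 9 XTH genes it was -0.19, with 1 lower, XTH29, whose signal did not exceed 39.3 on any array, and XTH18 at -0.39 ± 0.24. For 9 extensins identified by locus it was -0.00, with 1 higher, AT1G26250, and AT4G08410 at -0.33 ± 0.20.

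Class III peroxidases, enzymes that stiffen or loosen walls with hydrogen peroxide, had a median of 0.03 over 55 of 73 loci, with 3 higher and 4 lower at an unadjusted p under 0.05, or 12.7% of the list, where 5.3% of all probesets were in either direction. AT4G30170 stood at 0.60 ± 0.17 and AT1G34510 at -0.87 ± 0.26. The 6 of them found by symbol had a median of 0.05, with PRX52 at -0.96 ± 0.33 and Prx37 at 0.11 ± 0.20. For 21 beta-glucosidases the median was 0.17, with 3 higher and 1 lower (19.0% of the list), the lower being BGLU25. The higher were BGLU33, at signals of at most 25.5, with 1.40 ± 0.53, BGLU45, at signals of at most 45.9, with 1.22 ± 0.51, and BGLU16 with 0.53 ± 0.22. Over the 6 beta-glucosidases above the median signal the median was 0.07.

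No iron gene or glutaredoxin reached an unadjusted p of 0.05. For 4 of 33 iron genes the median was 0.18 with BHLH101 at 0.76 ± 0.85 and AT3G12900 at 0.29 ± 0.44. For 5 glutaredoxins it was -0.21, and 0.14 without Col-0 control replicate 2, with GRXC1 at -0.34 ± 0.20 and GRXC2 at -0.21 ± 0.16. For 23 cytochrome P450 genes it was 0.02 with 2 higher (8.7%), where 2.98% of all probesets were higher. These were CYP84A4 at 0.95 ± 0.36 and CYP71B22 at 1.13 ± 0.49. Both lay below the median signal, at no more than 122.2 and 30.4 on any array. Over the 4 cytochrome P450 members above the median signal the median was -0.28.

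The plastid-encoded genes were the largest list, with 69 members and a median interaction of 0.14. Of these, 52 were above 0 and 17 below, where 53% of all probesets were above 0, and 3 were higher at an unadjusted p under 0.05, a share near the 2.98% of all probesets. Among them, rpoA, a subunit of the plastid RNA polymerase, stood at 0.91 ± 0.25, with 1.35 and 0.46 within the replicate numbers. The median of the list was -0.03 within replicate number 1 and 0.33 within replicate number 2, and without Col-0 control replicate 2 it was -0.046. The green shoot markers given above were lower in per1 in either medium, and their part in this list was not tested.

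**Figure D4:**
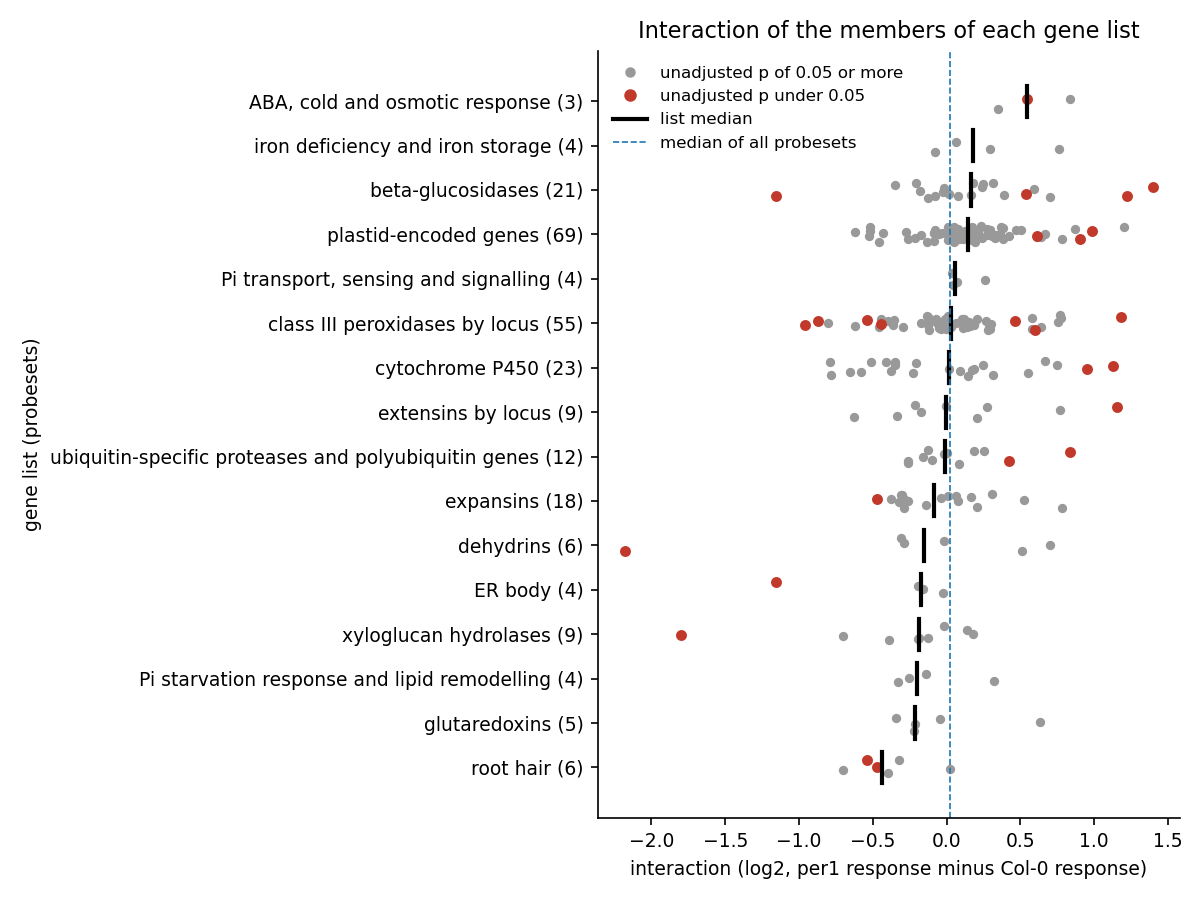
Interaction on the log2 scale (x axis) of each member of 16 gene lists (rows, the peroxidases found by symbol being shown among those by locus), with points for probesets and a line for the median of each list, beside the median of 0.02 over all probesets. AT4G38410 at -2.18 stands far from the other dehydrins, and the root hair list lies mostly below 0 with a median of -0.44.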

How the data were processed

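The deposited table, 1 column per array, holds linear probeset signal intensities as the authors made them. The sources used here name neither the summarising software nor its scaling. After removal of 64 control probesets from 22810, 22746 entered the tests. By the platform annotation 13513 of them carry 1 gene, 503 several and 8730 none. Of the 13513, 13436 were matched to TAIR10.1, and only probesets with 1 gene were named.

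Intensities were transformed as log2(signal + 16) and fitted with limma (version 3.58.1, run in R 4.3.3). The model held 1 mean for each group across the 8 arrays, which left 4 residual degrees of freedom, and its moderated variances followed an intensity trend. Standard errors come from these shared variances. P-values were adjusted by Benjamini-Hochberg over all probesets and called under 0.05. The fit was also run on simulated data with independent noise and with changes placed only above the median signal. No result of that run is used here. The number of arrays limits the precision, and p-values measure the spread between these arrays.

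Genes were named by rule, as every called probeset, the 10 named probesets of smallest interaction p per direction and 5 per class (above the median signal, same sign in both replicate numbers), those called for a Pi response and 2 per list. Letters mark unnamed probesets. The members and the 20 lists were chosen with earlier results of these data known, and 2 lists (peroxidases and extensins by locus) were added after the annotation was read. Lists of proteasome subunits, cytosolic ribosomal proteins and extensins by symbol had under 3 named loci and were not analysed here. Alternatives were offsets of 1 and 64, quantile normalization, a filter on the median signal, no intensity trend, robust variances, the replicate number as a block, other class limits and each array left out. No sequence was used.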

Additional observations from a re-analysis of the deposited data

Results flagged for a closer look

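The Pi response differed between Col-0 and per1 by the interaction test for probeset A, at -2.66 ± 0.20 on the log2 scale, with a limma adjusted p of 0.0029. It also differed for AT4G38410, at -2.18 ± 0.22, with a limma adjusted p of 0.030. Within the replicate numbers the interaction was -2.48 and -2.84 for probeset A and -1.94 and -2.42 for AT4G38410. The called interaction is the mean of these values, so they add no separate support.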

How the results depend on the processing

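The interaction was called for 2 probesets, and for 0 without the intensity trend, 1 with an offset of 64, 1 with quantile normalization and 0 to 2 without 1 array. AT4G38410 had limma adjusted p of 0.35, 0.056 and 0.0501 in the first 3 of these, and probeset A 0.35 without the trend; their estimates kept their sign in every fit run. Probesets at an unadjusted p under 0.05 numbered 592 above the median signal only and 824 to 2203 without 1 array, the highest without Pi-free Col-0 replicate 1. Whether arrays of the same replicate number share a batch was not tested, and the labels do not say what a number marks. Deviations from group means correlated by 0.002 to 0.077 over the 6 pairs of groups, which cannot exclude a batch. The 25S rRNA control signal was higher in replicate 2 than in replicate 1 of every group. It was 47 and 117.2 in Col-0 controls and 51.8 and 143.4 in Pi-free Col-0. In per1 it was 99.7 and 203.5 in controls and 88.4 and 241.8 in Pi-free medium. With the replicate block, 2 probesets were called for the interaction, 31 in Col-0 and 4 in per1; the last included probeset A, at a limma adjusted p of 0.036. Without 1 array, 3 to 4 were called in Col-0 and 0 to 2 in per1.

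Class counts hung on low signals. Lost responses numbered 404, against 965 with an offset of 1, 21 with 64, 14 above the median signal, 1202 with limits of 0.6 and 0.3, 105 with 1.5 and 0.75, and 341 to 920 without 1 array. For gained, these were 320, 867, 11, 5, 945, 90 and 256 to 762, and for reversed 332, 1307, 7, 4, 1159, 58 and 413 to 486. Weakened or strengthened ones numbered 5, then 212, 1, 1 and 6 to 16.

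Of the 996 interaction values computed under alternatives, 958 kept direction and side of the threshold and 13 lost a call. Only the 2 called probesets had a call to lose, and most of the 996 values belong to uncalled ones. The 13 are thus to be read against the fits of AT4G38410 and probeset A, and not against the 996. Of 135 for the Col-0 response, 87 lost it, all of them in fits without 1 array. Of 255 list medians under alternatives, 58 moved by more than the SD between replicate numbers. Without 1 array these medians changed sign: glutaredoxins (-0.37 to 0.14), cytochrome P450 (-0.25 to 0.12), plastid-encoded genes (-0.046 to 0.33), expansins (-0.19 to 0.0036), ubiquitin-specific proteases (-0.10 to 0.077), extensins (-0.42 to 0.42), and peroxidases by locus (-0.036 to 0.079) and by symbol (-0.20 to 0.17). The iron median was -0.0076 above the median signal only, and the root hair median ran from -0.51 to -0.31 without 1 array. Among named genes and lettered probesets, uncalled estimates that changed sign without 1 array were the interactions of probeset B (-0.20 to 0.19, and 0.00016 with an offset of 64), C (-0.336 to 0.0667), G (-0.126 to 0.0835), Prx37 (-0.0632 to 0.279) and SIZ1 (-0.0489 to 0.185), and the per1 response of J (-0.0257 to 0.286). The cause of these changes was not tested. With 2 arrays per group, differences at low signals cannot be resolved.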

Other observations

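GAT1_2.1, which encodes a class I glutamine amidotransferase-like protein, was picked after its values were seen and lies below the median signal. Its first probeset gave 48.2 and 40.2 in Col-0 controls, 3.6 and 5.2 in Pi-free Col-0, 12.2 and 6.9 in per1 controls and 135.1 and 53.5 in Pi-free per1. The media did not overlap within either genotype, and the order was opposite in Col-0 and per1. The interaction of this GAT1_2.1 probeset was 3.57 ± 0.55, with 4.13 and 3.01 within the replicate numbers and a limma adjusted p of 0.36. A second probeset of GAT1_2.1 stood at 0.77 ± 0.70 with a limma adjusted p of 0.94, at signals of 4.1 to 35.2, so the probesets of this gene disagree in size and neither passed the test.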
